A study of Homo sapiens with 2 samples.

Results

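MicroRNAs that have been tied to the spread of breast cancer were followed in MDA-MB-231 cells, an established line of human triple-negative breast cancer with mesenchymal features. The set was chosen by name and holds 9 of the 2656 mature microRNAs in the count table: hsa-miR-31-5p, hsa-miR-31-3p, hsa-miR-335-5p, hsa-miR-335-3p, hsa-miR-9-5p, hsa-miR-9-3p, hsa-miR-373-3p, hsa-miR-138-5p and hsa-miR-7-5p. Small RNA was sequenced from cells transduced with an shRNA against ELOVL5, a fatty acid elongase (shELOVL5), and from cells given the control shRNA shLuc, 1 library per condition. Both groups therefore carry an shRNA, and the labels name neither the vector nor whether a clone or a pool of cells was used. The labels describe cultured cells, although their extraction text speaks of tumor material, and the ELOVL5 mRNA is not among the measured RNAs.

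MicroRNAs are cut from hairpin precursors that carry a 5p and a 3p arm, and the arm that is loaded into an Argonaute protein guides it to mRNAs that match its seed, bases 2 to 8. miR-31 and miR-335 are known as suppressors of breast cancer metastasis, the first through mRNAs such as RHOA, ITGA5 and RDX and the second through SOX4 and tenascin C. miR-7, which represses EGFR and PAK1, and miR-138, which restrains migration in several carcinomas, are usually placed on the same side. miR-9, which targets the E-cadherin mRNA CDH1, and miR-373, which targets CD44, are known as promoters of migration and invasion.

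The mature sequences of the members and of the 3p arms that tell hairpins apart are shown 5′ to 3′ with the seed in capitals. They are shown because microRNAs with the same seed can match the same sites in mRNAs. The listed 3p arms of miR-138 and miR-7 also differ between hairpins. RefSeq (GRCh38.p14) held 8 of the 9 members, all but hsa-miR-31-3p.
hsa-miR-31-5p: aGGCAAGAugcuggcauagcu
hsa-miR-335-5p: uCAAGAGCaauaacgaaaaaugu
hsa-miR-335-3p: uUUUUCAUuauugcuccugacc
hsa-miR-9-5p: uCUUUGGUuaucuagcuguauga
hsa-miR-9-3p: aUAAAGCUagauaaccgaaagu
hsa-miR-373-3p: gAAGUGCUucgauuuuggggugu
hsa-miR-138-5p: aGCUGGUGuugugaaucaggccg
hsa-miR-7-5p: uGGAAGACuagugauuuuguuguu
hsa-miR-138-1-3p: gCUACUUCacaacaccagggcc
hsa-miR-138-2-3p: gCUAUUUCacgacaccaggguu
hsa-miR-7-1-3p: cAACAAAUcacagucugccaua
hsa-miR-7-2-3p: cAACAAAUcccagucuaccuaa
No seed was shared between the 8 members. Of the 2367 microRNAs in the count table that had a RefSeq sequence, no other carried the seed of miR-31-5p, of miR-138-5p, of miR-7-5p or of any arm of miR-335 or miR-9. Only hsa-miR-373-3p had relatives, 11 others with the seed AAGUGCU.

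The libraries held 6811811 counts (shELOVL5) and 7109272 counts (shLuc). Levels are given as counts per 1000000 counts (CPM) after TMM scaling, a trimmed-mean correction for library composition, and ratios are shELOVL5 over shLuc. Each ratio carries a 95% interval for counting error only, without the error of the scaling or between cultures. No unique molecular identifiers are described, so PCR copies may be counted as separate molecules. Since each condition has 1 library, variation between cultures is unknown, and there are no p-values. Markers of a mesenchymal basal-type line (miR-21-5p, miR-100-5p, miR-125b-5p, miR-222-3p and miR-221-3p) were abundant in both libraries, with 450688 CPM in shELOVL5 and 461049 CPM in shLuc over all 5. The 6 epithelial markers (miR-200 family, miR-141-3p and miR-205-5p) had 387 and 298 CPM, of which miR-141-3p and miR-205-5p gave at most 7 counts each in a library.

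The members ranged from abundant microRNAs to ones with no counts. hsa-miR-7-5p was the most abundant, with 28993 counts or 4204 CPM in the shELOVL5 library. In the shLuc library it had 29062 counts or 4139 CPM, and it held rank 35 and rank 36 of all microRNAs. hsa-miR-138-5p followed with 5441 counts (shELOVL5, 789 CPM) and 4841 counts (shLuc, 689 CPM). hsa-miR-335-3p had 2608 counts (378 CPM) and 2797 counts (398 CPM) in the same order. These 3 were the only members within the 100 most abundant microRNAs of both libraries. hsa-miR-9-5p, the arm known to target CDH1, had 634 counts (shELOVL5, 91.9 CPM) and 771 counts (shLuc, 110 CPM), at ranks 167 and 148. hsa-miR-335-5p, the arm known for the suppression of metastasis, had 309 counts (44.8 CPM) and 358 counts (51.0 CPM), at ranks 204 and 186. hsa-miR-9-3p had 41 counts (shELOVL5, 5.94 CPM) and 47 counts (shLuc, 6.69 CPM).

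At the bottom of the range, the remaining members were at or near 0. hsa-miR-373-3p had 4 counts in each library. Neither arm of miR-31 had a single count in either library. A count of 0 allows up to 3 counts, which is 0.435 CPM in shELOVL5 and 0.427 CPM in shLuc, and 1244 of the 2656 microRNAs were likewise at 0 in both. The level of hsa-miR-335-5p lay 103 times above that limit in shELOVL5 and 119 times above it in shLuc. hsa-miR-373-3p, at 4 counts, lay just above the limit in each library.

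The order of the members was the same in both libraries, from miR-7-5p through miR-138-5p, miR-335-3p, miR-9-5p, miR-335-5p and miR-9-3p to miR-373-3p. Neighbours in this order differed by more than counting error throughout. hsa-miR-7-5p exceeded hsa-miR-138-5p by 5.33-fold in shELOVL5 (5.18 to 5.49) and 6.0-fold in shLuc (5.82 to 6.19). The smallest step in shLuc was that from hsa-miR-138-5p to hsa-miR-335-3p, 1.73-fold (1.65 to 1.81), against 2.09-fold (1.99 to 2.19) in shELOVL5. The smallest step in shELOVL5 was that from hsa-miR-9-5p to hsa-miR-335-5p, 2.05-fold (1.79 to 2.36), against 2.15-fold (1.90 to 2.45) in shLuc. These are ratios of counts between molecules of 22 to 24 bases, without length correction, and differences in how well each sequence is ligated and amplified were not measured.

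**Figure D1:**
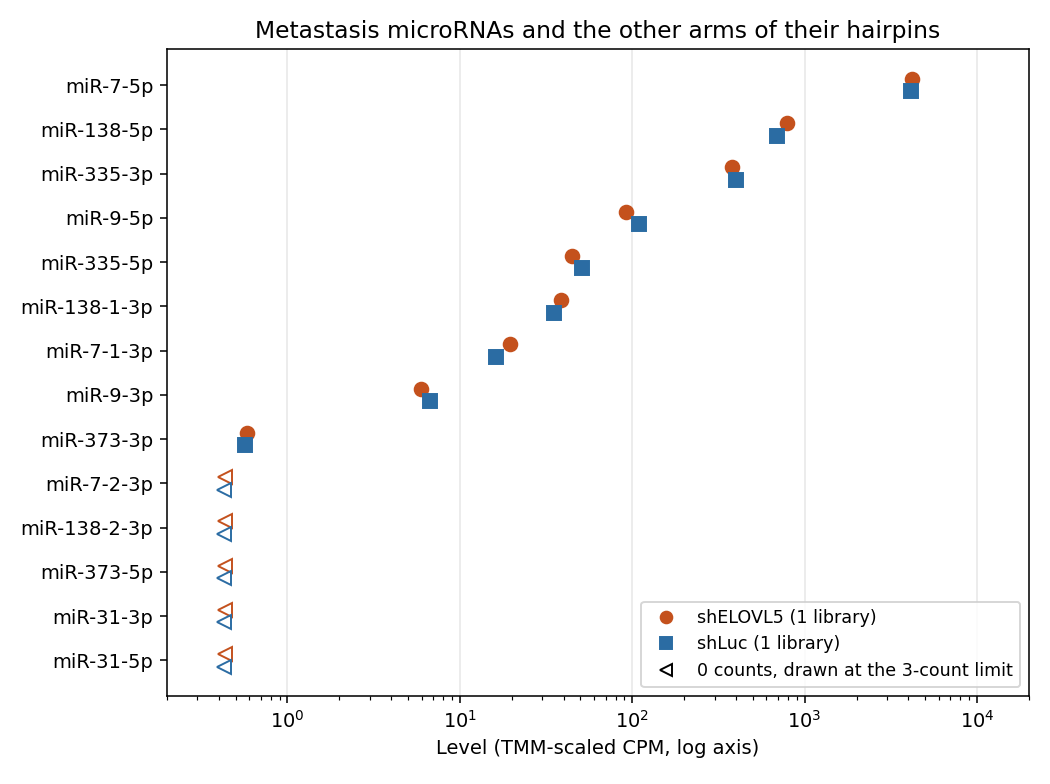
Levels of the 9 metastasis microRNAs and of the 5 other arms of their hairpins (x axis, TMM-scaled CPM on a log axis) in the shELOVL5 library (circles) and the shLuc library (squares), with microRNAs at 0 counts drawn as open triangles at the limit of 3 counts. The range runs from 4204 CPM for miR-7-5p to 0 counts for both arms of miR-31, and the libraries lie close together in every line.

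Summed, the 9 members made up 0.558% of all counts in shELOVL5 (Clopper-Pearson 95% interval 0.553 to 0.564%) and 0.533% in shLuc (0.527 to 0.538%). hsa-miR-7-5p alone made up 76.2% and 76.7% of these sums. The 6 members known as suppressors (both arms of miR-31 and miR-335, miR-138-5p and miR-7-5p) added up to 37351 and 37058 counts. The 3 members known as promoters (both arms of miR-9 and miR-373-3p) added up to 679 and 822 counts. miR-7-5p made up 77.6% of the suppressor sum in shELOVL5 and 78.4% in shLuc. The promoter sum is nearly that of miR-9-5p.

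The first comparison asked how far the members differed between ELOVL5 knockdown and control cells, as labelled. The differences were small, with 0 of the 6 measured members at least 2-fold higher or lower. Of all 562 microRNAs with at least 20 counts, 4.98% were at least 2-fold higher and 2.67% lower. A count of 0 in 6 is thus close to the background. hsa-miR-138-5p was 1.14-fold higher in shELOVL5 (1.1 to 1.19), and hsa-miR-9-5p stood at a ratio of 0.837 (0.752 to 0.931), 1.19-fold lower in shELOVL5. The other members had intervals that include 1.

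In detail, 6 of the 9 members had at least 20 counts over both libraries and entered the counts of differences, 2 were at 0 in both libraries, and hsa-miR-373-3p had 8 counts in all. Of these 6, 0 were at least 2-fold higher and 0 at least 2-fold lower, where 4.98% and 2.67% of all 562 microRNAs with at least 20 counts were. A counting interval above 1 was found for 1 of the 6, against 21.5% of the 562, and an interval below 1 for 1 of the 6, against 18.1%. At least 1.5-fold higher or lower were 0 of the 6, against 14.1% and 6.05% of the 562. Over the 348 microRNAs with at least 100 counts, to which 5 members belong, 1.72% were at least 2-fold higher and 0 were 2-fold lower, while 29.6% had an interval above 1 and 26.4% one below 1. All 6 members lay within 1.2-fold, as did 269 of the 562 (47.9%). The median log2 ratio of the 6 was -0.12, and that of the 562 was 0.023. A share of 1 in 6 in each direction is close to the background.

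hsa-miR-138-5p was the only member with an interval above 1. The 3p arm of its first hairpin, hsa-miR-138-1-3p, had 266 counts in shELOVL5 and 246 in shLuc, a ratio of 1.1 (0.922 to 1.31), which lay on the same side but included 1. hsa-miR-7-5p had a ratio of 1.02 (0.999 to 1.03), with an interval that limits a difference between these libraries to a few percent before the error of the scaling is considered. hsa-miR-7-1-3p had 135 and 114 counts and a ratio of 1.21 (0.933 to 1.56).

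All 4 measured members of the miR-9 and miR-335 hairpins had ratios below 1. hsa-miR-9-5p was the only one of them whose interval excluded 1. hsa-miR-9-3p stood at 0.888 (0.570 to 1.38), and its 88 counts over both libraries leave room for differences in either direction. hsa-miR-335-5p stood at 0.879 (0.752 to 1.03) and hsa-miR-335-3p at 0.949 (0.900 to 1.00), with upper bounds just above 1. For hsa-miR-373-3p the ratio was 1.02 with an interval from 0.190 to 5.47. No ratio can be given for miR-31.

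**Figure D2:**
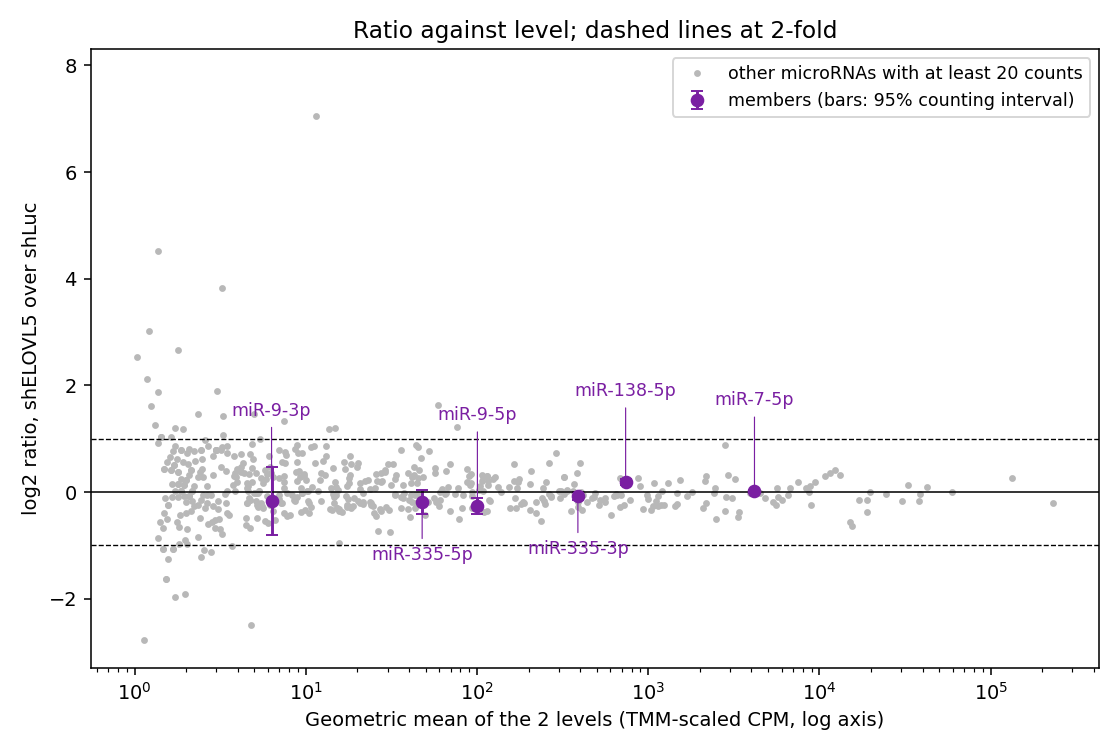
Log2 ratio of shELOVL5 over shLuc (y axis) against the geometric mean of both levels (x axis, TMM-scaled CPM on a log axis) for 560 microRNAs that reached 20 counts in total and at least 1 count in each library; 2 more with 0 counts in a library are not drawn. The 6 measured members (purple, bars show the 95% counting interval) all lie inside the dashed lines at 2-fold, between a log2 ratio of -0.26 for miR-9-5p and 0.19 for miR-138-5p.

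The second comparison concerned the arms of each hairpin, which needs no scaling between libraries because both arms come from the same library. In miR-335 the 3p arm dominated, with 89.4% of the hairpin's counts in shELOVL5 (88.2 to 90.5%) and 88.7% in shLuc (87.5 to 89.7%). The 5p arm, to which the suppression of SOX4 and tenascin C is attributed, was thus the minor arm, 8.44-fold below the 3p arm in shELOVL5 (7.5 to 9.53) and 7.81-fold below it in shLuc (7.0 to 8.75). The hairpin is shown with both mature arms in capitals because the arms have different seeds.
MIR335: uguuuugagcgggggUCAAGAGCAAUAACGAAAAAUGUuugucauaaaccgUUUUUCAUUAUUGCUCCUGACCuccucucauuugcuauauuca
The odds of the 5p over the 3p arm in shELOVL5 relative to shLuc were 0.926, with an exact conditional 95% interval from 0.785 to 1.09.

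miR-9, miR-138 and miR-7 had the 5p arm as the major one. In miR-9 the 3p arm took 6.07% of the counts in shELOVL5 (4.39 to 8.15%) and 5.75% in shLuc (4.25 to 7.57%), an odds ratio of 0.943 (0.598 to 1.49) for the 5p arm. In miR-138 the 3p arms took 4.66% (4.13 to 5.24%) and 4.84% (4.26 to 5.46%), with an odds ratio of 1.04 (0.867 to 1.2). In miR-7 the 3p arms took 0.463% (0.389 to 0.548%) and 0.391% (0.322 to 0.469%), with an odds ratio of 0.842 (0.650 to 1.09). The shares of miR-9, miR-138 and miR-7 pool several hairpins, and no 3p arm of MIR7-3 is listed. They are thus not the balance of a single hairpin. The intervals of all 4 odds ratios include 1, so a shift in arm use was not detectable at this depth. They do not show that the balance was equal, since for miR-9 they allow odds from 0.598 to 1.49 times those of the control.

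**Figure D3:**
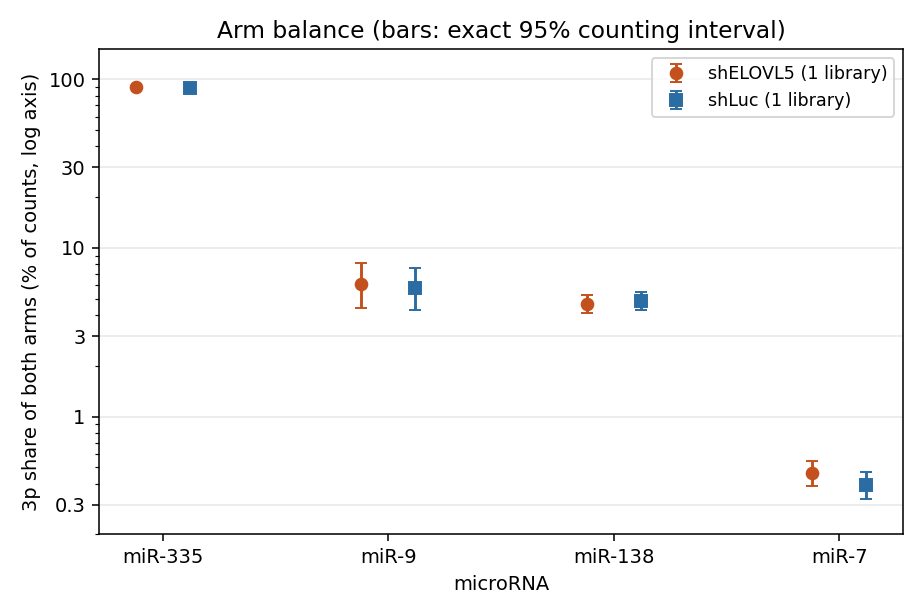
Share of the 3p arm in the counts of both arms (y axis, percent on a log axis) for miR-335, miR-9, miR-138 and miR-7 (x axis) in the shELOVL5 library (circles) and the shLuc library (squares), with exact 95% counting intervals. The 3p arm holds 89.4% and 88.7% of the miR-335 counts but no more than 6.07% in the other 3, and the intervals of the libraries overlap in each.

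The third comparison concerned the genomic copies, since miR-9 and miR-7 each have 3 hairpins and miR-138 has 2. Positions are on GRCh38 from GENCODE release 29, and the deposited table itself gives none. MIR335 (chromosome 7, 130496111 to 130496204) is carried by an intron of MEST, an imprinted gene, on the same strand. It also overlaps an exon of the antisense transcript AC007938.2. MIR31 (chromosome 9, 21512115 to 21512185) sits within an intron of the non-coding gene MIR31HG. MIR373 (chromosome 19, 53788705 to 53788773) lies between annotated genes. The miR-9 hairpins are MIR9-1 in an intron of C1orf61 (chromosome 1, 156420341 to 156420429), MIR9-2 in an exon of LINC00461 (chromosome 5, 88666853 to 88666939) and MIR9-3 in an intron of MIR9-3HG (chromosome 15, 89368017 to 89368106). MIR138-1 (chromosome 3, 44114212 to 44114310) and MIR138-2 (chromosome 16, 56858518 to 56858601) overlap no annotated gene. MIR7-1 (chromosome 9, 83969748 to 83969857) overlaps an annotated exon of HNRNPK, an RNA-binding protein gene. MIR7-2 (chromosome 15, 88611825 to 88611934) lies opposite MIR3529, and MIR7-3 (chromosome 19, 4770670 to 4770779) lies in an intron of MIR7-3HG.

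The deposited table lists a mature microRNA under each of its precursors, and these lines differed for miR-138. hsa-miR-138-5p had 5441 counts under MIR138-1 and 2940 under MIR138-2 in shELOVL5, and 4841 and 2574 in shLuc. The MIR138-1 line thus held 2501 more counts in shELOVL5 and 2267 more in shLuc. These were 46.0% (44.6 to 47.3%) and 46.8% (45.4 to 48.2%) of its total. The intervals assume that the reads of the lower line are among those of the higher line, which is not known. The 3p arms, which have different sequences, all came from the same hairpin. hsa-miR-138-1-3p had 266 and 246 counts, and hsa-miR-138-2-3p had 0 in both libraries, which allows at most 3. From base 1 at the 5′ end, the second 3p arm differs from the first by C5U, A11G, C21U and C22U.

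Both hairpins are shown with the mature arms in capitals because the letters around the shared 5p arm differ.
MIR138-1: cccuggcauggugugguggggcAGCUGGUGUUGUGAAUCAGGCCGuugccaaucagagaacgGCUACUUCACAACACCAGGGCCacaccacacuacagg
MIR138-2: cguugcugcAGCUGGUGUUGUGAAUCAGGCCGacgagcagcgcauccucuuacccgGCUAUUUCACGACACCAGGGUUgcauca
The 23 bases of hsa-miR-138-5p are common to both. Beyond them the hairpins share 2 bases before the arm and 0 after it. How the authors assigned reads that match both hairpins is not given in the sources used here, so the difference between the lines cannot be read as the output of MIR138-1 alone.

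For miR-7 the lines were nearly equal. hsa-miR-7-5p had 28993, 28142 and 28145 counts under MIR7-1, MIR7-2 and MIR7-3 in shELOVL5, and 29062, 28131 and 28164 in shLuc. The MIR7-1 line was the highest in both. It exceeded the lowest by 851 counts in shELOVL5 (2.94% of its total, 2.74 to 3.14%) and by 931 in shLuc (3.20%, 3.0 to 3.41%). These intervals rest on the same assumption as those of miR-138. Among the listed 3p arms, counts came from the first hairpin only, with 135 and 114 counts for hsa-miR-7-1-3p and 0 and 0 for hsa-miR-7-2-3p. From base 1 at the 5′ end, the second differs from the first by A10C, G17A, A20U and U21A, all outside the shared seed. No 3p arm of MIR7-3 is listed in the table, and a 3p arm at 0 does not show that its hairpin gave no 5p counts. The lines of miR-9 were identical, with 634 and 771 counts for the 5p arm and 41 and 47 for the 3p arm under each of the 3 hairpins, so these counts do not tell the copies apart.

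**Figure D4:**
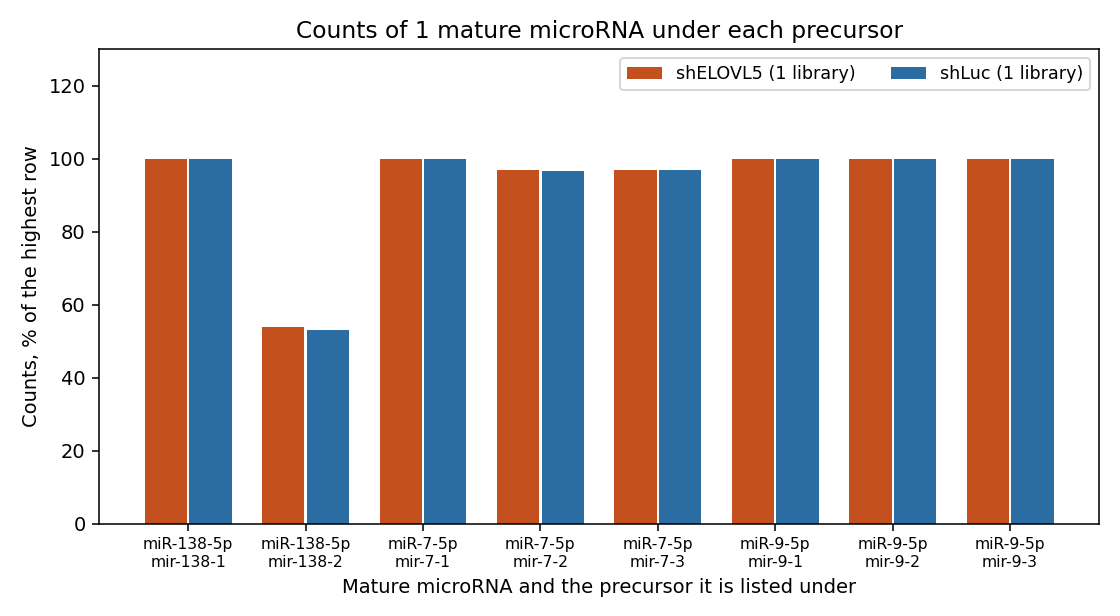
Counts of hsa-miR-138-5p, hsa-miR-7-5p and hsa-miR-9-5p under each precursor they are listed for (x axis), as a percentage of the highest line of that microRNA (y axis), in the shELOVL5 and shLuc libraries. The line of miR-138-5p under mir-138-2 holds 2940 counts against 5441 under mir-138-1 in shELOVL5, while the lines of miR-7-5p differ by at most 3.20% and those of miR-9-5p not at all.

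Other microRNAs near the members were counted within 1 Mb of each hairpin. Near MIR31, where both arms were at 0, hsa-miR-491-5p lies 796 kb away at 20716120 to 20716141 on chromosome 9. It had 125 counts in shELOVL5 and 118 in shLuc, and hsa-miR-491-3p had 13 and 10, so microRNA counts were present within 1 Mb of MIR31. Near MIR335, 9 of 10 neighbours had at least 20 counts, of which 4 had an interval above 1, 3 below 1, and 0 were 2-fold different, where the shares over all 562 microRNAs were 21.5% above 1, 18.1% below 1, 4.98% at least 2-fold higher and 2.67% at least 2-fold lower. The most abundant were hsa-miR-29a-3p, a repressor of collagen genes, with 90085 and 71451 counts and a ratio of 1.28 (1.27 to 1.30), and hsa-miR-182-5p with 20541 and 27110 counts and a ratio of 0.771 (0.757 to 0.785). The ratios of both miR-335 arms lay between those of these neighbours. Near MIR373, 13 of 72 neighbours had at least 20 counts, led by hsa-miR-1283 with 141 and 97 counts and hsa-miR-516a-5p with 99 and 56, each of which has 2 genomic copies. Among the 13, hsa-miR-518e-5p, hsa-miR-519b-5p, hsa-miR-519c-5p, hsa-miR-522-5p and hsa-miR-523-5p each had the same 27 and 16 counts. They may list the same reads under several names, so the 13 may not be separate measurements. Of the 13, 4 had an interval above 1 and 0 one below 1, against the same 21.5% and 18.1%. At least 2-fold different were 3 of the 13, against 4.98% higher and 2.67% lower over the 562, and all 3 were higher in shELOVL5. They were hsa-miR-516b-5p (31 and 5 counts, ratio 6.31, 2.43 to 20.8), hsa-miR-935 (24 and 3 counts, 8.14, 2.47 to 42.3) and hsa-miR-512-3p (14 and 7 counts, 2.04, 0.769 to 5.96), named after their values were seen. Near MIR138-2, 1 of 4 neighbours had at least 20 counts, hsa-miR-6772-3p with 13 in each library (ratio 1.02, 0.435 to 2.38). Near MIR7-3 it was 1 of 5, hsa-miR-4746-5p with 167 and 163 counts (1.04, 0.835 to 1.30). Of the neighbours of MIR138-1, MIR7-2 and the 3 miR-9 hairpins, 0 had at least 20 counts, and MIR7-1 had no neighbours.

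The seed shared by miR-373-3p is that of microRNAs known from embryonic stem cells and the placenta. Of its 11 relatives, only hsa-miR-372-3p, which lies in the same cluster, had at least 20 counts, with 37 in each library and a ratio of 1.02 (0.628 to 1.65). Its count was 9.25 times that of hsa-miR-373-3p (3.32 to 35.7) in each library. The other 10 had at most 4 counts in a library, and 5 of them were at 0 in both. All 12 microRNAs with this seed together had 50 counts in shELOVL5 and 42 in shLuc. The sequence is shown for comparison with miR-373-3p above, with which it shares the seed.
hsa-miR-372-3p: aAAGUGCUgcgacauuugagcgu

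miR-9, miR-138 and miR-7 are known for their high levels in brain and, for miR-7, in endocrine cells. Of 7 microRNAs listed here as neuronal markers, 5 had at least 20 counts, and the sum of the list was 18337 counts in shELOVL5 and 23478 in shLuc. hsa-miR-128-3p, which many other tissues also express, gave 17197 and 22379 of these. hsa-miR-124-3p, the defining microRNA of neurons, was at 0 in both libraries. hsa-miR-219a-5p, which is not particular to neurons, had 1 and 2 counts. The remaining microRNAs of this list were present and did not share a direction. hsa-miR-129-5p had 325 and 191 counts (ratio 1.73, 1.44 to 2.08), hsa-miR-132-3p 776 and 872 (0.906, 0.821 to 0.999), hsa-miR-137-3p 16 and 8 (2.04, 0.822 to 5.50) and hsa-miR-212-3p 22 and 26 (0.861, 0.465 to 1.58). The endocrine marker hsa-miR-375-3p had 5 counts in each. Of 7 embryonic stem or germ cell markers, 3 were at 0 in both libraries, and their sum was 46 and 42 counts, of which hsa-miR-372-3p gave 37 in each. In the same order, blood markers summed to 331 and 398 CPM, mostly from hsa-miR-486-5p with 2146 and 2788 counts. The other measured blood markers ran the opposite way, with 84 and 6 counts for hsa-miR-142-5p (ratio 14.3, 6.28 to 39.9) and 45 and 2 for hsa-miR-142-3p (22.9, 5.98 to 195). Stromal and endothelial markers summed to 757 and 633 CPM, mostly from hsa-miR-126-3p with 5175 and 4394 counts. The other markers of that list had at most 32 counts each in a library. Muscle markers summed to 24.8 and 21.2 CPM, with hsa-miR-206 higher in shELOVL5 (155 and 69 counts) and hsa-miR-1-3p lower (14 and 80 counts, ratio 0.178, 0.0932 to 0.317). Whether other cell types bear on the members was not tested.

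By level in both libraries, each member with at least 100 counts was compared with 1023 other microRNAs that had at least 1 count in each library. The distance is Euclidean over 2 log2 CPM values, so it describes level and ratio in 2 libraries only. Nearest to hsa-miR-7-5p was hsa-miR-1307-3p (distance 0.032, 28577 and 29559 counts), followed by hsa-let-7e-5p and hsa-let-7d-5p. Nearest to hsa-miR-138-5p was hsa-miR-126-3p (0.16, 5175 and 4394 counts), followed by hsa-let-7d-3p and hsa-miR-197-3p. hsa-miR-335-3p had hsa-miR-34c-5p (0.074), hsa-miR-532-5p and hsa-miR-24-2-5p as its nearest, and hsa-miR-335-5p had hsa-miR-151b (0.042), hsa-miR-500a-3p and hsa-miR-2277-5p. hsa-miR-9-5p had hsa-miR-589-5p (0.14), hsa-miR-1296-5p (0.20) and hsa-miR-7974 (0.21) as its nearest.

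Wider lists of microRNAs known from breast cancer metastasis set the members beside others placed on the same side. The side of each listed microRNA was taken as given, may differ between studies and was not tested. In the suppressor list, 17 of 23 microRNAs had at least 20 counts. Of these, 12 had an interval above 1, 1 below 1 and 4 included 1. Those above were miR-126-3p, miR-206, miR-146a-5p, miR-146b-5p, miR-193b-3p, miR-200a-3p, miR-200b-3p, miR-29b-3p, miR-148a-3p, miR-138-5p, miR-17-5p and miR-22-3p. They include related microRNAs, such as miR-146a-5p with miR-146b-5p and miR-200a-3p with miR-200b-3p, so the 12 may not be independent. Over all 562 microRNAs, 21.5% were above 1 and 18.1% below 1. All 17 had at least 100 counts, and over the 348 microRNAs with that many the shares were 29.6% and 26.4%. The median log2 ratio of the 17 was 0.24, against 0.023 over the 562 and -0.017 over the 348. Of the 3 members among the 17, hsa-miR-138-5p was above 1 while hsa-miR-7-5p and hsa-miR-335-5p included 1. The most abundant of the list were hsa-miR-30a-5p (ratio 0.970, the 1 interval below 1), hsa-miR-22-3p (1.14), hsa-miR-7-5p and hsa-miR-17-5p (1.18), and only hsa-miR-206, with 155 and 69 counts, was at least 2-fold different (2.29, 1.71 to 3.08). This list was chosen with earlier results of these libraries known, which limits what its direction shows. In the promoter list, 12 of 16 had at least 20 counts, and all 12 had at least 100. Of the 12, 5 had an interval above 1 and 5 below 1. The shares were 21.5% and 18.1% over the 562, and 29.6% and 26.4% over the 348. The median log2 ratio of the 12 was 0.021. hsa-miR-9-5p was among the 5 below, with miR-182-5p, miR-183-5p, miR-221-3p and miR-222-3p, while those above were miR-21-5p, miR-103a-3p, miR-107, miR-181a-5p and miR-210-3p. Its most abundant members were hsa-miR-21-5p, hsa-miR-222-3p, hsa-miR-221-3p and hsa-miR-103a-3p, the last with a ratio of 1.14 (1.13 to 1.15). hsa-miR-9-5p and hsa-miR-373-3p were far below these, as hsa-miR-103a-3p alone had 69697 and 62275 counts. Some other promoters were near 0 like miR-373-3p, with 2 counts in each library for hsa-miR-155-5p and for hsa-miR-214-3p.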

How the data were processed

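Small RNA was sequenced from 1 shELOVL5 and 1 shLuc library of MDA-MB-231 cells. The authors deposited raw read counts per precursor and mature microRNA in 2886 lines, without normalization. Per the submitters' processing notes, Bowtie 1.1.1, cutadapt 2.10 and FastQC 0.11.9 were used. Not given in the sources used here are the counting program, the annotation release and the handling of reads matching several hairpins. The highest line per mature microRNA and library was kept. Counts were scaled with TMM factors (1.01 for shELOVL5, 0.988 for shLuc; edgeR 4.0.16, R 4.3.3). Intervals of shares are exact Clopper-Pearson intervals, from which those of ratios follow; odds ratios have exact conditional intervals (scipy 1.17.1). A minimum of 20 counts over both libraries applied to counts of differences. No test was possible. Members, lists and rules were chosen with earlier results of these data known. Named were all members, their other arms, relatives by seed with at least 20 counts and the 3 nearest by level. Within 1 Mb of each locus, up to 2 of the most abundant neighbours with at least 20 counts were named. Per list, the 4 most abundant and up to 2 more that were 2-fold different with at least 100 counts were named. Marker microRNAs, the suppressors with intervals above 1, the promoters with intervals above or below 1, hsa-miR-155-5p and hsa-miR-214-3p were named after values were seen. So were the neighbours of MIR373 beyond the 2 most abundant. The alternatives tried were size factors of DESeq2 1.42.0, total count scaling, 5 CPM added, the sum over precursor lines, other count minimums and a 1.5-fold rule. The scripts were tested on simulated counts.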

Additional observations from a re-analysis of the deposited data

How the results depend on the processing

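No paired analysis was possible because there is a single library per condition, and leaving out a library would leave no comparison. No member was 2-fold different under any alternative, and none at a 1.5-fold rule. Log2 ratios shifted by 0.036 with total count scaling and, with DESeq2 size factors (1 in both libraries, thus unscaled counts), by -0.026. By construction this moved the ratio of hsa-miR-7-5p, whose counting interval is narrow, from 1.02 to 1.04 and to 0.998. The number of members with an interval above 1 was 2 with total count scaling, and the number with an interval below 1 was 2 with DESeq2 size factors, against 1 each. With the sum over precursor lines both were 2, where reads listed under several precursors are counted again and the intervals become too narrow. Shares over all microRNAs under these alternatives are not given here, so these counts cannot be set against a background. hsa-miR-138-5p stayed above 1 and hsa-miR-9-5p below 1 in ratio under all 4 alternatives run on them. The median log2 ratio of the promoter list was -0.0045 with DESeq2 size factors, against 0.021. Depth limits miR-31, miR-373-3p and miR-9-3p.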
